A study of Mus musculus with 4 samples.

Results

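Cd209a type 2 dendritic cells were followed in droplet-based single-cell transcriptomes of mouse prostate tumours. Members were chosen by their counts of unique molecular identifiers (UMIs, each standing for 1 captured transcript) in cells that passed a minimum of 200 genes and a ceiling of 20% on mitochondrial UMIs. A member had at least 3 UMIs of the lectin genes Cd209a, Mgl2 and Clec10a together and at least 20 UMIs of the MHC class II genes H2-Aa, H2-Ab1 and H2-Eb1. It also had fewer than 10 C1q UMIs, at most 1 Cd3 UMI and fewer than 5 UMIs of Col1a1 and Dcn. These limits kept 130 of 3381 cells (3.85%). Of the members, 52 and 26 came from TKO replicates 1 and 2, and 24 and 28 from DKO replicates 1 and 2.

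The TKO tumours carried floxed Pygo2 in addition to the alleles of the DKO tumours, which include floxed Smad4, and both genotypes carried the tamoxifen-inducible Nkx3.1CreERT2 driver. The Nkx3.1 promoter is active in prostate epithelium, so the dendritic cells of either genotype are not the cells in which the alleles were to be recombined, and Smad4 was targeted in both. The comparison of TKO with DKO asks what loss of Pygo2, a partner of beta-catenin in Wnt signalling, in the epithelium changes in the cells around it. That loss cannot be told apart here from other differences between TKO and DKO mice, such as genetic background. Each genotype had 2 libraries. The labels used here do not say how long after tamoxifen each tumour was taken, or whether replicates are different mice. The p-values below therefore rest on the variation among 4 libraries, part of which may be technical. The tumours were dissociated with enzymes, and red cells and Annexin V-binding dying cells were removed. The 4 samples were then stained with hashtag antibodies and loaded together.

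Dendritic cells take up antigen, carry it to lymph nodes and show it to T cells. The type 2 conventional lineage presents mainly on MHC class II to CD4 T cells and depends on the transcription factor Irf4. Its surface lectins Cd209a, a relative of human DC-SIGN, and Mgl2 and Clec10a, which bind galactose-type sugars, serve in uptake.

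Members were deeply sampled. They held a median of 26450.5 UMIs, against 8815 UMIs in the other kept cells. Their summed UMIs were 1485060 and 683475 in the TKO libraries and 674599 and 849458 in the DKO libraries, and levels are given below as CPM, a gene's part of the members' summed UMIs in a library, on the usual counts-per-library scale. No barcode was shared between libraries. In all 130 members the hashtag of the own library was the most abundant, with at least 86.2% of the hashtag UMIs. Samples loaded together are told apart by hashtag, so neither the top hashtag nor the absent sharing is an independent check. No doublet caller was run. Of the members, 18 carried UMIs of another cell class. More than 1 B cell UMI was found in 6, 20 or more S100a8 and S100a9 UMIs in 1, and 3 or more UMIs of Epcam, Krt8 and Krt18 in 12, with overlap. DKO replicate 2 held 7 of those 12 cells.

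Because Cd209a, Mgl2, Clec10a and the MHC class II genes chose the members, their levels are a description. Cd209a (mm10 chromosome 8, 3743397 to 3748984, minus strand) stood at 533 CPM over all members and 13.02 CPM in the other kept cells. Clec10a stood at 497 CPM against 11.4 CPM and Mgl2 at 414 CPM against 22.2 CPM. Mgl2 and Clec10a are close relatives that lie side by side on chromosome 11 (70130329 to 70137550 and 70156197 to 70170834), so reads shared by both may be split between them. A Cd209a UMI was present in 75.4% of members (exact 95% interval 67.1 to 82.5%), against 1.72% of T cells at a median of 11464 UMIs and 1.02% of neutrophils at a median of 7062 UMIs. Clec10a UMIs were present in 88.5% of members and Mgl2 UMIs in 49.2%. Members held a median of 642 UMIs of the 3 MHC class II genes, and the lowest member held 43.

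The threshold of 3 lectin UMIs fell in a thin range of the data. Just outside it, 6 cells had 2 lectin UMIs, with a median of 324.5 MHC class II UMIs. Just inside, 6 members had exactly 3 lectin UMIs, with a median of 498.5 MHC class II UMIs, and 1 member had 4. These 7 members came from TKO replicates 1 and 2 (3 and 2 cells) and from DKO replicate 1 (2 cells).

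Genes that the rule did not name also set the members apart from the other kept cells. Of the 15 genes with the highest ratio, 6 were genes of the rule. Zfp366, which encodes the zinc-finger protein DC-SCRIPT of dendritic cells, had 194 and 120 CPM in TKO members, 378 and 152 CPM in DKO members and 12.96 CPM in the other kept cells, with DKO replicate 1 the highest. H2-DMb2 and H2-DMb1, which encode chains of the H2-DM molecule that loads peptides onto MHC class II, stood at 226 and 630 CPM in members, against 14.3 and 68.4 CPM elsewhere. Napsa, an aspartic protease gene, stood at 904 against 85.8 CPM. Kynu, an enzyme gene of tryptophan breakdown, stood at 160 against 14.5 CPM, and the serotonin receptor gene Htr7 at 329 against 34.2 CPM.

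The members were set beside the populations most like them, as a description. The type 1 and Ccr7 dendritic cell gate (53 cells) was chosen on Xcr1, Clec9a, Ccr7 or Fscn1, and the C1q gate (54 cells) on C1qa, C1qb and C1qc. Zbtb46, a transcription factor gene of conventional dendritic cells, ranged over libraries from 94.2 to 105 CPM in members and from 82.5 to 192 CPM in the type 1 and Ccr7 gate. It ranged from 0 to 5.48 CPM in C1q macrophages and from 3.11 to 36.2 CPM in the monocyte gate (123 cells). Flt3, the growth factor receptor gene of dendritic cells, ranged from 122 to 163 CPM in members and from 269 to 504 CPM in the type 1 and Ccr7 gate, so these ranges did not overlap. Irf4 was at 54.5 to 63.6 CPM in members and at 7.57 to 36.5 CPM in that gate. Klrd1, known for the CD94 receptor of natural killer cells, was at 401 to 550 CPM in members and at 49.6 to 250 CPM in the type 1 and Ccr7 gate. Xcr1, the chemokine receptor gene that defines type 1 dendritic cells, was at most 1.46 CPM in members. Lyz2, the lysozyme gene of myeloid cells, stood at 823 to 1631 CPM in members, against 7791 to 14644 CPM in the monocyte gate. Ly6c2 stood at 173 to 293 CPM in members and 515 to 672 CPM in the monocyte gate, which Ly6c2 helped to choose. A UMI of Fcgr1, listed here as a macrophage marker, was present in 49.2% of members, and a Zbtb46 UMI in 62.3%.

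**Figure D1:**
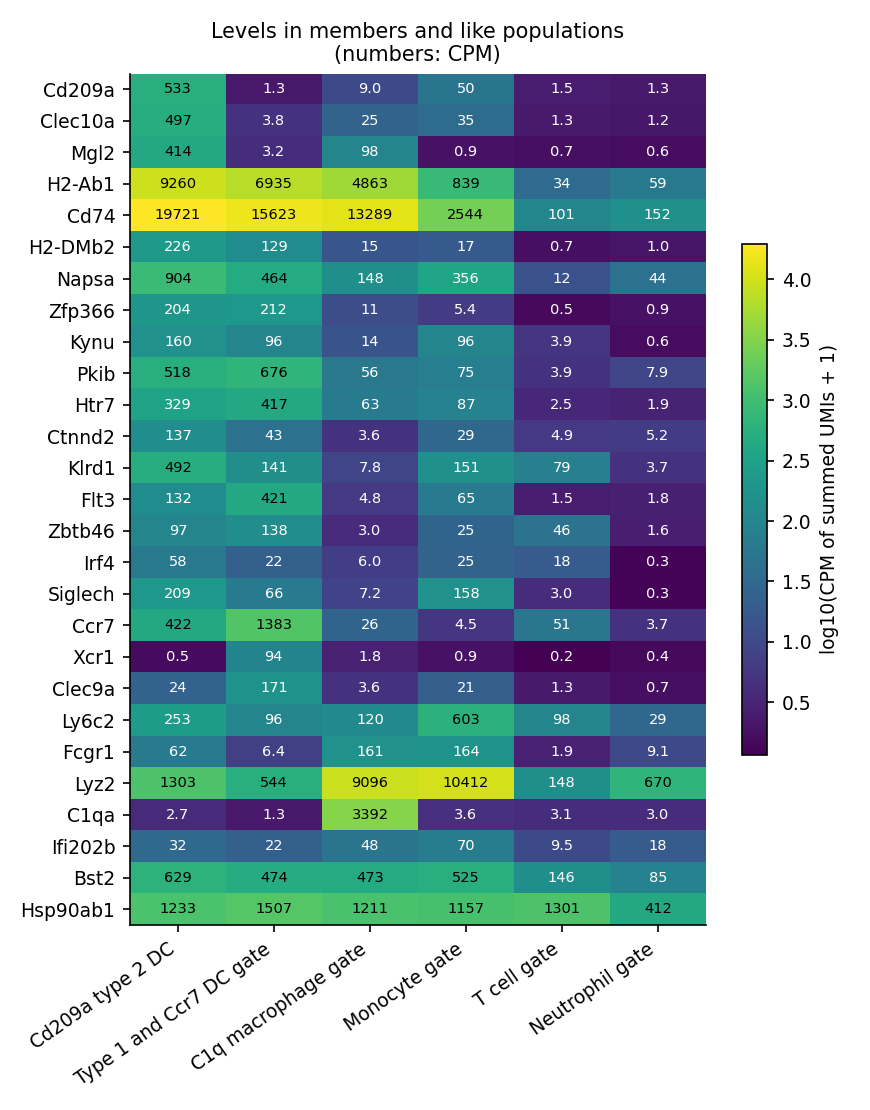
CPM of summed UMIs over all 4 libraries for 27 genes (rows) in members and 5 other gates (columns). Colour is log10(CPM + 1) and the printed number is CPM. Cd209a is at 533 CPM in members and 50 CPM in the monocyte gate, and Zbtb46 is at 97 CPM in members and 3.0 CPM in C1q macrophages.

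The label does not hold for all members. In 16 members Siglech, a surface lectin gene used as a marker of plasmacytoid dendritic cells, had 34 to 69 UMIs, while 106 members had 0 and 8 had 1 or 2. No member lay between. The limit of 3 Siglech UMIs used here was set after seeing these values. The 8 plasmacytoid markers, Siglech among them, summed to 7986 CPM in the 16 Siglech-high members, 241 CPM in Mgl2-high members and 409 CPM in Mgl2-low members (both explained below). Tcf4, the transcription factor gene of plasmacytoid cells, stood at 2214, 202 and 335 CPM in these 3 groups. Zbtb46 stood at 2.32, 114 and 107 CPM, and the 5 type 2 markers at 7812, 40527 and 27975 CPM. Ly6c2, in the same order, stood at 1542, 14.2 and 136 CPM, so the Siglech-high members carried much of the level given above. Leading genes of the Siglech-high members were Grm8, Siglech, Mctp2, Cox6a2 and Ly6d. A Clec10a UMI was present in all 16 of them and a Cd209a UMI in 12. A further 11 kept cells that the rule left out had at least 34 Siglech UMIs. Siglech-high members numbered 8 and 3 in TKO replicates 1 and 2 (15.4% and 11.5% of members) and 2 and 3 in DKO replicates 1 and 2 (8.33% and 10.7%). They are kept below, since the rule chose them, and results that rest on them are given without them too.

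**Figure D2:**
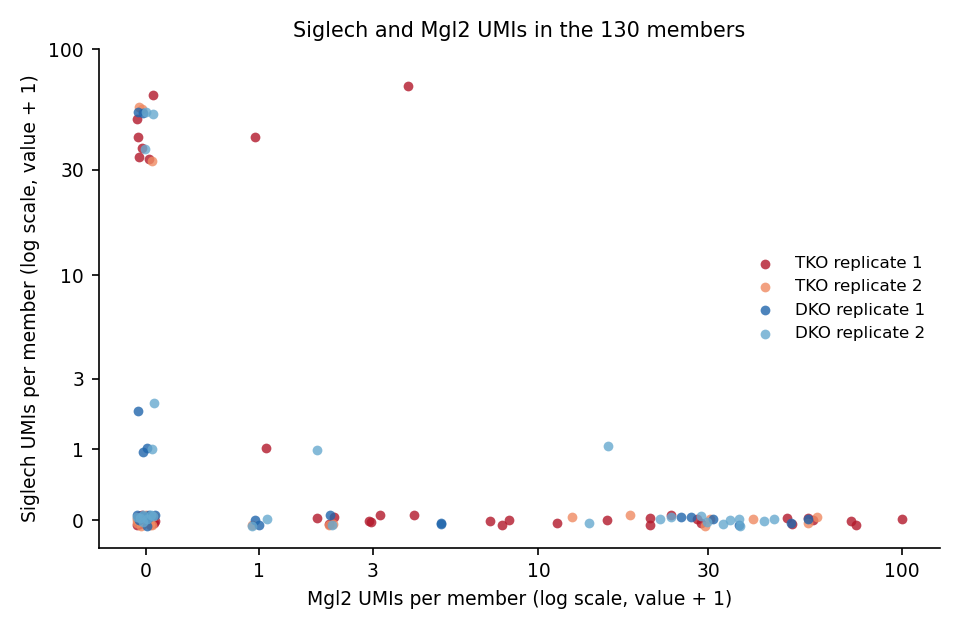
Siglech UMIs (vertical) against Mgl2 UMIs (horizontal) in each of the 130 members, on log scales of the value plus 1, with small random shifts to separate points. The 16 members with 34 to 69 Siglech UMIs stand apart from the others, which have 0 to 2, and 14 of the 16 have no Mgl2 UMI.

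The other 114 members were divided at 5 Mgl2 UMIs, also after seeing the values. The 44 Mgl2-high members numbered 17 and 7 in TKO and 8 and 12 in DKO, and the 70 Mgl2-low members 27 and 16 in TKO and 14 and 13 in DKO. Mgl2-high members were led, after Mgl2, by genes such as Ccr7, the receptor gene that guides dendritic cells to lymph nodes, at 818 CPM, against 211 CPM in Mgl2-low members. Fabp5, a fatty acid carrier gene, stood at 740 against 232 CPM. Ccl17, a chemokine gene for Ccr4-bearing T cells, stood at 462 against 235 CPM, an order seen only in DKO. In DKO it had 657 and 540 CPM in Mgl2-high and 3.06 and 167 CPM in Mgl2-low members. In TKO the order was reversed, at 460 and 25.1 CPM in Mgl2-high and 470 and 54.7 CPM in Mgl2-low members. Mgl2-low members were led by Lyz2 at 2305 CPM, against 384 CPM in Mgl2-high members, and by Ifitm6, Ccl9, Fn1 and Cxcl10. Cxcl10 ran the other way in TKO replicate 2, at 84.5 CPM in Mgl2-low and 356 CPM in Mgl2-high members. The listed monocyte markers summed to 2911 CPM in Mgl2-low and 1395 CPM in Mgl2-high members. An Fcgr1 UMI was present in 36 of the 70 Mgl2-low and 28 of the 44 Mgl2-high members. For Zbtb46 these numbers were 48 and 32. Which lineage these members came from was not tested. Cd209a stood at 671 CPM in Mgl2-low and 455 CPM in Mgl2-high members. The rule itself favours that order, since a cell with fewer than 3 Mgl2 UMIs passes only with Cd209a or Clec10a UMIs. MHC class II presentation genes (20 genes, those of the rule included) summed to 66045 CPM in Mgl2-high, 46750 CPM in Mgl2-low and 15776 CPM in Siglech-high members. As these groups were cut from the values, none of the differences was tested.

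No difference between genotypes in the share of Cd209a type 2 dendritic cells was detectable with 2 libraries each. They made up 4.30% (exact 95% interval 3.23 to 5.61%) and 3.26% (2.14 to 4.74%) of the kept cells in TKO replicates 1 and 2. In DKO replicates 1 and 2 they made up 3.89% (2.51 to 5.73%) and 3.69% (2.47 to 5.29%). The DKO shares lay between the TKO shares. Means were 3.78 ± 0.74% in TKO and 3.79 ± 0.14% in DKO (SD, n = 2 each), a difference of -0.006 percentage points (exact two-sided permutation p = 1.0, where 2 against 2 libraries allow no p below 0.33). Intervals cover counting error only. Without the Siglech-high members the difference was -0.166 points. Among cells with at least 20 MHC class II UMIs, in contrast, members made up 31.3% and 29.9% in TKO and 36.9% and 35.9% in DKO, so both TKO values were below both DKO values (-5.81 points, exact permutation p = 0.33, the smallest possible). That denominator includes the macrophages, B cells and other dendritic cells whose numbers vary between libraries.

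**Figure D3:**
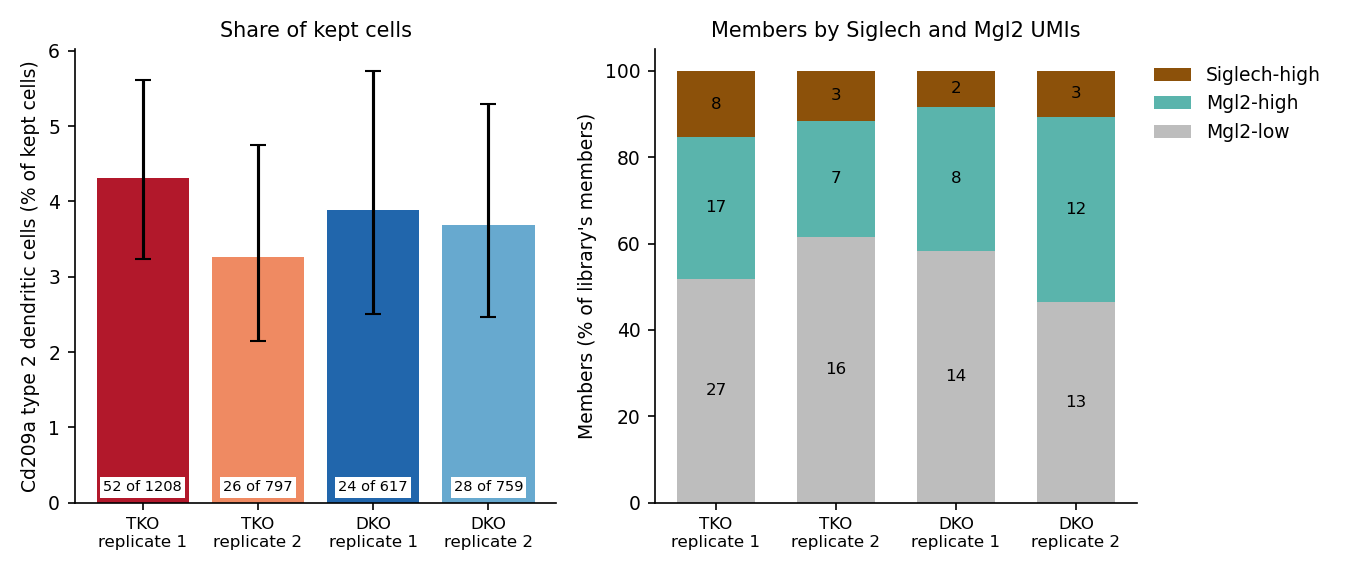
Left, members as a percentage of kept cells in each library, with exact 95% binomial intervals and the counts in the bars. Right, the makeup of the members in Siglech-high, Mgl2-high and Mgl2-low cells, as a percentage of each library's members with the cell numbers printed. The DKO shares of 3.89% and 3.69% lie between the TKO shares of 4.30% and 3.26%.

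The genes of the rule differed unevenly between libraries. Cd209a had 574 and 913 CPM in TKO members, against 430 and 237 CPM in DKO members, and the groups did not overlap. Clec10a had 459 and 815 CPM in TKO and 329 and 443 CPM in DKO members, also without overlap. Mgl2 overlapped, with 455 and 360 CPM in TKO and 353 and 434 CPM in DKO members. H2-Ab1 had 9134 and 8717 CPM in TKO and 9527 and 9706 CPM in DKO members, with both TKO libraries slightly below. Cd74, the invariant chain gene, had 19743 and 19894 CPM in TKO, values that lay between the 19014 and 20105 CPM of DKO. The rule sets a floor under the lectin and H2 genes it names, so no test is given for those 6 and they are left out of the list counts below. The share of members with a Flt3 UMI was 73.1% in both TKO libraries and 91.7% and 92.9% in the DKO libraries, a difference of -19.2 points (exact permutation p = 0.33). With every member thinned to 2000 UMIs the Flt3 difference was -7.67 points. In CPM, Flt3 stood at 122 and 126 in TKO and 163 and 128 in DKO members.

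The transcriptomes were next compared between genotypes, with UMIs summed over the members of each library. Of 6906 genes tested, 1 passed (0.0145%, edgeR quasi-likelihood test, Benjamini-Hochberg adjusted p under 0.05). It was Ifi202b (ENSMUSG00000026535, mm10 chromosome 1, 173962568 to 173982744, minus strand), a member of the interferon-inducible p200 family of DNA-binding proteins. Ifi202b gave 1 UMI in each TKO library and 47 and 68 UMIs in DKO replicates 1 and 2, which is 0.673 and 1.46 CPM in TKO and 69.7 and 80.1 CPM in DKO. Its mean was 1.07 ± 0.56 CPM in TKO members, against 74.9 ± 7.34 CPM in DKO members (SD, n = 2 each). The fitted log2 fold change was -6.16 ± 0.53 (SE, edgeR adjusted p = 0.00365). Summed over libraries, the DKO level was 81.8 times the TKO level (95% counting interval 22.1 to 684). No single member held more than 14.9% of the Ifi202b UMIs in a DKO library, and the call held under every alternative tried (largest adjusted p 0.0369). Relatives of Ifi202b lie beside it on chromosome 1, so reads may be split among them.

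The 250 bases before the start site of Ifi202b are shown because it is the gene the comparison called. Capitals would mark the interferon-response motif, searched as GAAA, any 2 bases and GAAA (TTTC, any 2 bases and TTTC for the other strand), and this window holds none. Sequences here are from RefSeq on GRCm38.p6, 5′ to 3′ on the strand of the gene, and this one is chr1:173982845-173983094, minus strand.
Ifi202b: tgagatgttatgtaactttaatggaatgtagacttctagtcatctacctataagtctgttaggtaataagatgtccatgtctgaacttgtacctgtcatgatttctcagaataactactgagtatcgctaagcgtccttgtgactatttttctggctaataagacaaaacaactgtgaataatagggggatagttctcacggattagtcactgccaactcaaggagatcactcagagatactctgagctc

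Below this 1 gene, 232 genes were higher in TKO (3.36%) and 226 lower (3.27%) at an unadjusted edgeR p under 0.05, 6.63% in all. Both TKO libraries lay above both DKO libraries in 18.7% of the genes tested and below them in 17.0%. The median log2 fold change over all genes was 0.001, and 3464 of the 6906 were positive. These all-gene values are the background of the list counts of this fit given below. Apart from Ifi202b, no gene described below passed the adjusted test, so their values are given without a call. DESeq2 on the same sums called 12 genes.

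Among the genes of smallest p, several rested on few cells. Prnp, the prion protein gene, had 35.02 and 35.1 CPM in TKO members, against 170 and 111 CPM in DKO members (log2 -2.00 ± 0.29, SE, edgeR adjusted p = 0.132). Ppfia4, which encodes a liprin scaffold protein, gave 1 UMI in each TKO library and 43 UMIs in the DKO libraries together, a ratio of 30.6 (95% counting interval 7.97 to 261). These 2 genes were spread over cells, with no DKO member holding more than 30.9% of the UMIs of either in a library. Mmp12, the macrophage elastase gene, had 2.02 and 0 CPM in TKO and 129 and 42.4 CPM in DKO, but 1 member held 100% of its UMIs in DKO replicate 1 and 1 member held 88.9% in DKO replicate 2. Hamp, the hepcidin gene of iron control, had 26.3 and 17.6 CPM in TKO and 0 in both DKO libraries. That is at least 11.9-fold higher against a floor of 3 UMIs over the DKO members, and 1 member held 56.4% of the Hamp UMIs in TKO replicate 1 and 1 held 100% in TKO replicate 2. Mid1, a ubiquitin ligase gene, had 62.0 and 99.5 CPM in TKO, against 10.4 and 14.1 CPM in DKO (log2 2.66 ± 0.41, edgeR adjusted p = 0.147), and 1 member held 55.4% of its UMIs in TKO replicate 1.

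Cadm1, an adhesion gene also used as a type 1 marker, was found mostly in the Siglech-high members. It had 54.5 and 32.2 CPM in TKO and 5.93 and 5.89 CPM in DKO members (log2 2.88 ± 0.47, edgeR adjusted p = 0.147). Its level was 246 CPM in Siglech-high, 0.708 CPM in Mgl2-high and 2.70 CPM in Mgl2-low members. Within the Siglech-high members it had 347 and 256 CPM in TKO and 76.1 and 29.2 CPM in DKO. Those DKO values rest on 2 and 3 cells. Spib, a transcription factor gene of plasmacytoid and B cells, had 89.6 and 81.9 CPM in TKO and 19.3 and 29.4 CPM in DKO, and Cd8b1, a CD8 chain gene, had 99.0 and 80.5 CPM in TKO and 25.2 and 2.35 CPM in DKO. Both were chosen after their values were seen, and both were highest in Siglech-high members (439 CPM for Spib and 506 CPM for Cd8b1). Within the Siglech-high members Spib had 501 and 573 CPM in TKO and 114 and 321 CPM in DKO. Cd8b1 had 642 and 658 CPM in TKO and 324 and 14.6 CPM in DKO Siglech-high members. Without these members Spib had a log2 fold change of 1.06, against 1.79 with them, and Cadm1 and Cd8b1 had too few UMIs to be tested.

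Several other genes of the p200 family had higher levels in TKO members, though none passed the test. Ifi211 had 83.5 and 105 CPM in TKO members, against 26.7 and 16.5 CPM in DKO members (log2 2.13 ± 0.34, SE, edgeR adjusted p = 0.147). Ifi203 had 178 and 158 CPM in TKO, against 86.0 and 43.6 CPM in DKO (1.40 ± 0.31, adjusted p = 0.299). Ifi204, chosen after its values were seen, had 79.5 and 114 CPM in TKO and 51.9 and 16.5 CPM in DKO (1.53 ± 0.48, adjusted p = 0.537), with log2 fold changes of 0.90 to 2.50 when 1 library was left out. In Ifi211, Ifi203 and Ifi204 both TKO libraries lay above both DKO libraries. Aim2, also of this family, did not share that direction, with a log2 fold change of -0.27 ± 0.38 (SE). One member held 44.4% of the Ifi211 UMIs and one member 43.1% of the Ifi203 UMIs in DKO replicate 1.

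None of the type I interferon response genes passed the adjusted test, and most had higher values in TKO members. Of 31 listed genes 26 were tested, and 23 of them had a positive fold change, with a median of 0.82 on the log2 scale against 0.001 over all genes. At an unadjusted edgeR p under 0.05, 11 were higher and 0 lower. Both TKO libraries lay above both DKO libraries for 17 of the 26, beside 18.7% of all genes. Bst2, which encodes tetherin, a protein that holds budding viruses at the surface, had 741 and 771 CPM in TKO, against 462 and 450 CPM in DKO (0.73 ± 0.17, SE, edgeR adjusted p = 0.319). Bst2 stood at 2792 CPM in Siglech-high, 249 CPM in Mgl2-high and 416 CPM in Mgl2-low members, and without the Siglech-high members its log2 fold change was 0.66 (edgeR adjusted p = 0.722). Oas3, a sensor enzyme gene for double-stranded RNA, had 18.9 and 33.7 CPM in TKO, against 4.45 and 4.71 CPM in DKO (2.42 ± 0.59, adjusted p = 0.320). Trim30a, a ubiquitin ligase gene, had 212 and 263 CPM in TKO, against 142 and 97.7 CPM in DKO (0.99 ± 0.26, adjusted p = 0.344). Not all of the list took part. Irf7, a transcription factor gene of the interferon response chosen after its values were seen, overlapped at 110 and 130 CPM in TKO and 130 and 71.8 CPM in DKO.

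The 250 bases before the start sites of Bst2, Oas3 and Trim30a, the 3 interferon-list genes of smallest p, are shown for the motif named above, which capitals mark on either strand. It is found in 11 of the 27 windows of listed genes and in 2.98% of all 32851 windows of this length. Those 27 windows belong to 22 genes, of which 11 hold the motif. The windows shown are chr8:71537473-71537722 (Bst2, 2 overlapping matches), chr5:120777660-120777909 (Oas3) and chr7:104465194-104465443 (Trim30a), all on the minus strand.
Bst2: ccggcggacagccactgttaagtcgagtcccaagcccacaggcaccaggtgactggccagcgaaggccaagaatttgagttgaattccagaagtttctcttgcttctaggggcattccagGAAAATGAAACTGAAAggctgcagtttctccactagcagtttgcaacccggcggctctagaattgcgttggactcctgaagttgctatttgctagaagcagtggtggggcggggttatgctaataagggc
Oas3: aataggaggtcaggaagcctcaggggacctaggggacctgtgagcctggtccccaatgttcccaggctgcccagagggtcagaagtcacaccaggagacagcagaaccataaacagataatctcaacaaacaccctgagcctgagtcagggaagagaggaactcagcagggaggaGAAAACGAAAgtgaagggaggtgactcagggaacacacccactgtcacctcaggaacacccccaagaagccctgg
Trim30a: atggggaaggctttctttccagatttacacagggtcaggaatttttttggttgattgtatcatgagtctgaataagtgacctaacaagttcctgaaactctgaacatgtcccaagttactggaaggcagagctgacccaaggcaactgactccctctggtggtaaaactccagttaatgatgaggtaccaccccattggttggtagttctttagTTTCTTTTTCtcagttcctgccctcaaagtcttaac
A match is a description of these letters only.

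Members differed widely in interferon-list UMIs, and 1 of them moved the comparison. The summed level was 3429 and 3729 CPM in TKO, against 2891 and 1875 CPM in DKO members. One member of DKO replicate 1 held 38.0% of that library's list UMIs and had exactly 3 lectin UMIs, the lowest number the rule allows. Without the highest member of each library the sums were 3020 and 3410 CPM in TKO, against 1878 and 1731 CPM in DKO. The median over members was 2083 and 2772 CPM in TKO and 1291 and 1325 CPM in DKO. With a stricter limit of 5 lectin UMIs, which leaves out 7 members, the list median was 1.60 and 22 genes were higher at an unadjusted p under 0.05, and without DKO replicate 1 these values were 1.61 and 21. Of all genes, 3.24% were higher with the stricter limit and 5% without DKO replicate 1. Without DKO replicate 2 the list median was 0.65, with 9 genes higher and 2 lower, where 5.9% of all genes were higher and 6.46% lower. Without the Siglech-high members the median was 0.93, with 16 genes higher and 0 lower, where 3.11% of all genes were higher. More than 5000 CPM of the list was found in 10 and 6 members of TKO replicates 1 and 2 and in 2 members of each DKO library. The stricter lectin limit left out both such members of DKO replicate 1, at 24037 and 6942 CPM, so it is not a neutral check. In TKO replicate 1 it left out members at 9548 and 6658 CPM, among the 10 above 5000 CPM. By subset, the sums in Mgl2-high members were 2083 and 3021 CPM in TKO and 1243 and 1679 CPM in DKO, and in Siglech-high members 4965 and 4936 CPM in TKO and 4245 and 4788 CPM in DKO, both without overlap. In Mgl2-low members they overlapped, at 3903 and 3834 CPM in TKO and 4162 and 1559 CPM in DKO. Without the highest Mgl2-low member of each library they were 3083 and 3282 CPM in TKO and 2092 and 1208 CPM in DKO, without overlap. The same step left no overlap in Mgl2-high members (1552 and 2090 CPM in TKO, 1174 and 1476 CPM in DKO) but gave an overlap in Siglech-high members, at 4569 and 3363 CPM in TKO and 3613 and 3882 CPM in DKO. Per-member medians in Mgl2-high members overlapped, at 908 and 1823 CPM in TKO and 1290 and 1325 CPM in DKO.

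**Figure D4:**
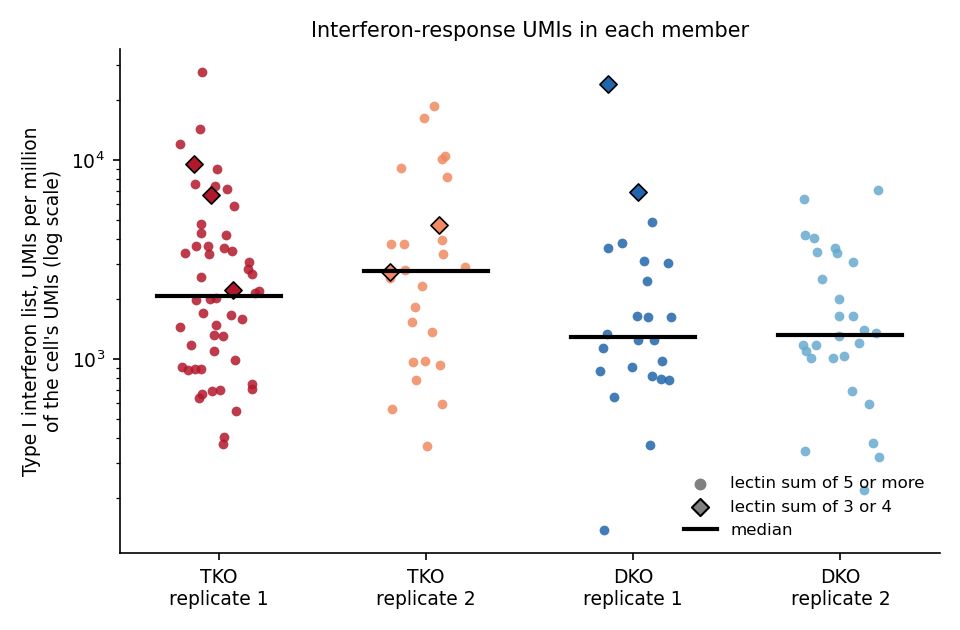
UMIs of the type I interferon list in each member, scaled to CPM by the cell's own UMIs (vertical, log scale), by library. Points are members, diamonds the 7 members with 3 or 4 lectin UMIs, and bars the medians, which are 2083 and 2772 CPM in TKO and 1291 and 1325 CPM in DKO. The highest DKO replicate 1 point is a diamond.

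Cxcl10, an interferon-inducible chemokine gene that attracts Cxcr3-bearing T cells, was carried by few members everywhere. It had 131 and 154 CPM in TKO members, against 60.8 and 25.9 CPM in DKO members (log2 1.74 ± 0.36, SE, edgeR adjusted p = 0.247). In each of the 4 libraries 1 member held 55.4% to 64.8% of its UMIs. Of the genes induced by interferon gamma 12 were tested, with a median of 0.23, 3 higher and 0 lower at an unadjusted p under 0.05. Psmb9, an immunoproteasome subunit gene, had 224 and 234 CPM in TKO and 117 and 175 CPM in DKO (0.63 ± 0.25, edgeR adjusted p = 0.680).

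No chaperone gene passed the adjusted test, and most had higher values in TKO members. Of 12 heat shock genes 10 were tested, 9 with a positive fold change, and the median was 0.57. At an unadjusted edgeR p under 0.05, 6 were higher and 0 lower, beside 3.36% and 3.27% of all genes. Hsp90ab1, the constitutive HSP90 gene, had 1543 and 1510 CPM in TKO, against 800 and 813 CPM in DKO (0.92 ± 0.15, SE, edgeR adjusted p = 0.147). Both TKO libraries lay well above both DKO libraries, and no member held over 12.01% of its UMIs in a library. Hsph1, a co-chaperone gene, had 54.5 and 38.0 CPM in TKO, against 11.9 and 16.5 CPM in DKO (1.70 ± 0.38, adjusted p = 0.319). Hspd1, the mitochondrial chaperonin gene, had 133 and 111 CPM in TKO, against 66.7 and 68.3 CPM in DKO (0.86 ± 0.24, adjusted p = 0.415). The summed list was at 4976 and 5574 CPM in TKO and 3727 and 3476 CPM in DKO. The per-member medians, 4379 and 5696 CPM in TKO and 3246 and 3193 CPM in DKO, were ordered the same way. Dnajb1, an HSP40 co-chaperone gene named after its values were seen, was below both DKO libraries in both TKO libraries, with 30.3 and 43.9 CPM in TKO and 57.8 and 47.1 CPM in DKO. All 4 samples were digested warm, and the part of handling was not tested.

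No MHC class I presentation gene passed the adjusted test, and their fold changes were small and of one sign. All 18 listed genes were tested and all 18 had a positive fold change, with a median of 0.35. At an unadjusted edgeR p under 0.05, 5 were higher and 0 lower, beside 3.36% and 3.27% of all genes. Calr and Pdia3, chaperone genes of the peptide-loading complex, stood at 751 and 682 CPM (Calr) and 465 and 516 CPM (Pdia3) in TKO, against 479 and 520 CPM (Calr) and 298 and 351 CPM (Pdia3) in DKO. Their log2 fold changes were 0.52 ± 0.17 and 0.59 ± 0.20 (SE, edgeR adjusted p = 0.572 and 0.578). Psme2, a proteasome activator gene, had 254 and 310 CPM in TKO and 165 and 205 CPM in DKO (0.60 ± 0.23, adjusted p = 0.678). Without TKO replicate 2 the list median was 0.30, with 16 of the 18 fold changes positive. Without DKO replicate 1 it was 0.35, with 18 positive. Siglech-high members held the highest class I sum (11664 CPM, against 8549 CPM in Mgl2-high and 9091 CPM in Mgl2-low members). Without the Siglech-high members, 16 of the 18 had a positive fold change. In that fit 4 were higher at an unadjusted p under 0.05, beside 3.11% of all genes.

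MHC class II presentation genes outside the rule went both ways. Of 16 tested, 7 had a positive and 9 a negative fold change, with a median of -0.03, and 4 were higher and 1 lower at an unadjusted p under 0.05. The summed list, dominated by the genes of the rule, was at 50422 and 49911 CPM in TKO and 50305 and 51347 CPM in DKO. H2-Ob, a chain of the H2-DO molecule that restrains H2-DM, had 49.8 and 77.5 CPM in TKO, against 34.1 and 29.4 CPM in DKO (0.97 ± 0.35, SE, edgeR adjusted p = 0.640). Ifi30, a lysosomal thiol reductase gene, had 2069 and 1867 CPM in TKO, against 1613 and 1401 CPM in DKO (0.38 ± 0.15, adjusted p = 0.676). Lgmn, the legumain protease gene, ran the other way, with 143 and 130 CPM in TKO, against 262 and 180 CPM in DKO (-0.69 ± 0.24, adjusted p = 0.601).

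**Figure D5:**
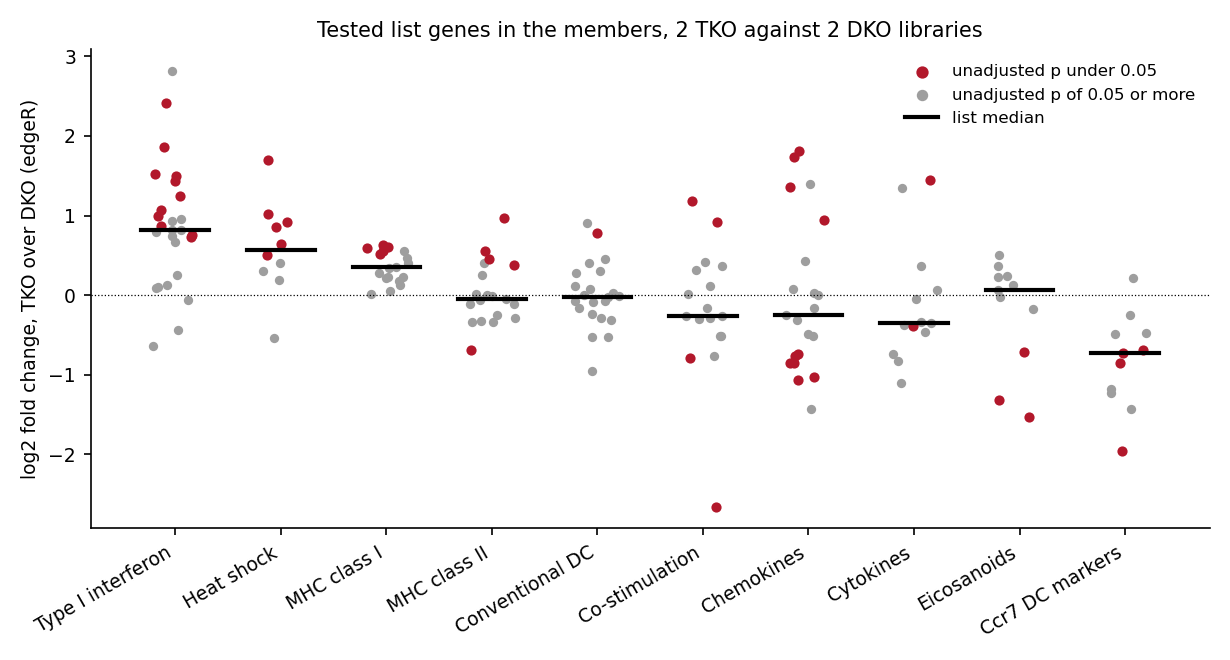
Log2 fold change, TKO over DKO, of the tested genes of 10 lists in the members (vertical), with 1 point a gene. Red points have an unadjusted edgeR p under 0.05 and black bars are list medians, which run from 0.82 for type I interferon genes to -0.73 for Ccr7 dendritic cell markers.

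No marker of Ccr7-bearing, migrating dendritic cells passed the adjusted test, and most had lower values in TKO members. Of 15 listed genes 11 were tested, 10 of them with a negative fold change, a median of -0.73 and 4 lower and 0 higher at an unadjusted p under 0.05. Ccr7 (chromosome 11, 99144196 to 99155077) had 341 and 290 CPM in TKO, against 655 and 487 CPM in DKO (-0.85 ± 0.20, SE, edgeR adjusted p = 0.319). One member of DKO replicate 1 held 55.0% of that library's Ccr7 UMIs, and the share of members with a Ccr7 UMI was 53.8% in both TKO libraries and 41.7% and 57.1% in the DKO libraries. Cd200, a surface ligand gene that dampens myeloid cells and chosen after its values were seen, had 8.75 and 8.78 CPM in TKO and 46.0 and 23.5 CPM in DKO. Il4i1, which encodes an amino acid oxidase, had 61.3 and 51.2 CPM in TKO, against 91.9 and 90.6 CPM in DKO (-0.69 ± 0.26, adjusted p = 0.640). The summed list was at 1296 and 666 CPM in TKO and 1825 and 1373 CPM in DKO, without overlap. The per-member medians overlapped, at 516 and 460 CPM in TKO and 450 and 835 CPM in DKO, and 1 member held 32.1% of the list UMIs of DKO replicate 1. The list median was -2.12 without TKO replicate 1, with 9 genes lower, and -1.17 without DKO replicate 2, with 8 lower, where 4.2% and 6.46% of all genes were lower. Without the Siglech-high members it was -0.66, with 2 of 10 lower (3.15% of all genes lower and 3.11% higher in that fit). With a Cd209a UMI required, 0 of 6 were lower, where 3.35% of all genes were lower.

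Chemokine and chemokine receptor genes went both ways, with 4 higher and 6 lower of 21 tested at an unadjusted p under 0.05 and a median of -0.25. The median turned to 0.11 without TKO replicate 1 and to 0.07 without DKO replicate 1. Ccr1, an inflammatory chemokine receptor gene, had 86.2 and 95.1 CPM in TKO members, against 179 and 195 CPM in DKO members (-1.06 ± 0.23, SE, edgeR adjusted p = 0.299). Cytokine genes had a median of -0.35 over 13 tested, with 1 higher and 1 lower. Il1b, the interleukin-1 beta gene, was by far the most abundant of those named, with 3980 and 3737 CPM in TKO, against 5818 and 4307 CPM in DKO (-0.39 ± 0.16, adjusted p = 0.680). Tnf had 31.0 and 19.0 CPM in TKO and 14.8 and 4.71 CPM in DKO, and 1 member held 67.4% of its UMIs in TKO replicate 1. Ccl17, chosen after its values were seen, set TKO replicate 2 apart, with 395 and 39.5 CPM in TKO and 289 and 328 CPM in DKO.

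Of 17 tested co-stimulation and checkpoint genes, 2 were higher and 2 lower at an unadjusted p under 0.05. Tnfsf4, the OX40 ligand gene that sustains T cell responses, had 3.37 and 7.32 CPM in TKO members, against 26.7 and 34.1 CPM in DKO members (-2.66 ± 0.53, SE, edgeR adjusted p = 0.238). One member held 62.1% of the Tnfsf4 UMIs in DKO replicate 2. Havcr2, the TIM-3 gene, had 76.8 and 52.7 CPM in TKO and 94.9 and 131 CPM in DKO (-0.79 ± 0.29, adjusted p = 0.640). Slamf7, an adhesion receptor gene of immune cells, had 41.1 and 73.2 CPM in TKO, against 26.7 and 22.4 CPM in DKO (1.18 ± 0.40, adjusted p = 0.573). Cd274, the PD-L1 gene, chosen after its values were seen, overlapped at 255 and 114 CPM in TKO and 342 and 193 CPM in DKO.

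Transcription factor and receptor genes of conventional dendritic cells were mostly even. Of 22 tested genes 10 had a positive and 12 a negative fold change (median -0.02), with 1 higher and 0 lower at an unadjusted p under 0.05. That gene was Zeb2, a repressor that shapes the monocyte and type 2 lineages, with 591 and 736 CPM in TKO members, against 368 and 404 CPM in DKO members (0.78 ± 0.20, SE, edgeR adjusted p = 0.337). A single member held 36.7% of the Zeb2 UMIs in TKO replicate 1. The Zeb2 level was 793 CPM in Mgl2-low and 256 CPM in Mgl2-high members. Irf4 had 54.5 and 61.5 CPM in TKO and 56.3 and 63.6 CPM in DKO, and Zbtb46 had 94.3 and 105 CPM in TKO and 101 and 94.2 CPM in DKO. Klf4, a factor gene needed by part of the type 2 lineage, was high in 1 DKO library, with 92.9 and 151 CPM in TKO and 326 and 142 CPM in DKO. Irf4, Zbtb46 and Klf4 were chosen after their values were seen.

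Of 21 tested lectin and uptake genes other than those of the rule, 3 were higher and 4 lower at an unadjusted p under 0.05. Clec4e, the Mincle gene for a receptor of mycobacterial glycolipids, had 82.8 and 99.5 CPM in TKO members, against 50.4 and 28.3 CPM in DKO members (1.22 ± 0.33, SE, edgeR adjusted p = 0.385), and 1 member held 60.2% of its UMIs in TKO replicate 1. Eicosanoid genes, for lipid mediators, had 3 lower and 0 higher of 11 tested. Alox5, the enzyme gene that starts leukotriene synthesis, had 8.75 and 7.32 CPM in TKO, against 26.7 and 21.2 CPM in DKO (-1.53 ± 0.47, adjusted p = 0.462). These are 13 and 5 UMIs in TKO and 18 in each DKO library, with 40.0% to 53.8% of them in 1 member per library. Hypoxia and glycolysis genes had 2 lower and 0 higher of 17. Hk2, a hexokinase gene, had 114 and 111 CPM in TKO, against 179 and 200 CPM in DKO (-0.76 ± 0.22, adjusted p = 0.445), and Slc2a1, the glucose transporter gene GLUT1, had 64.6 and 67.3 CPM in TKO, against 119 and 97.7 CPM in DKO (-0.72 ± 0.25, adjusted p = 0.601). Immediate early genes had 1 higher and 2 lower of 17. Btg2, an anti-proliferative early gene, had 463 and 480 CPM in TKO, against 800 and 640 CPM in DKO (-0.61 ± 0.18, adjusted p = 0.448). All 6 tested cell cycle genes had a negative fold change, with a median of -0.74, and 0 had an unadjusted edgeR p under 0.05. One member of DKO replicate 2 held 656 cell cycle UMIs, without which that library's list level was 1773 instead of 2413 CPM.

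The genes of the mouse model were measured in the members as in any cell, although the driver is epithelial. Pygo2 gave 9 and 2 UMIs in TKO and 4 and 7 UMIs in DKO members, too few to be tested, and checks neither the deletion nor the labels. Smad4, floxed in both genotypes, had 97.6 and 80.5 CPM in TKO and 225 and 137 CPM in DKO (log2 -1.01 ± 0.28, SE, edgeR adjusted p = 0.385), with 40.1% of its DKO replicate 1 UMIs in 1 member. Ctnnb1, the beta-catenin gene, had 72.7 and 71.7 CPM in TKO and 84.5 and 85.9 CPM in DKO (-0.24 ± 0.25, adjusted p = 0.956). Kit, a growth factor receptor gene, had 87.5 and 102 CPM in TKO and 151 and 140 CPM in DKO (-0.63 ± 0.24, adjusted p = 0.663).

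Summed markers of B, T and NK, mast, epithelial, fibroblast and endothelial cells and neutrophils were at most 465 CPM in any library's members. The rule caps Cd3d, Cd3e, Cd3g, Col1a1 and Dcn, so the T and NK and the fibroblast sums were in part kept low in advance. Monocyte, plasmacytoid and type 1 dendritic cell markers stood higher, and several lists were ordered by genotype. B cell markers stood at 178 and 130 CPM in TKO and 111 and 129 CPM in DKO, and epithelial markers at 99.0 and 113 CPM in TKO and 133 and 191 CPM in DKO. Fibroblast markers stood at 221 and 266 CPM in TKO and 194 and 208 CPM in DKO. Neutrophil markers stood at 142 and 124 CPM in TKO and 465 and 98.9 CPM in DKO. Of the T and NK cell markers Ncr1 and Klrb1c, and of 7 mast cell markers 6, had no UMI in any member. The T and NK list stood at 188 and 258 CPM in TKO and 105 and 74.2 CPM in DKO. Monocyte markers stood at 2700 and 2761 CPM in TKO and 2264 and 2257 CPM in DKO, plasmacytoid markers at 1424 and 1255 CPM in TKO and 894 and 1129 CPM in DKO. Type 1 dendritic cell markers stood at 671 and 733 CPM in TKO and 528 and 469 CPM in DKO, and endothelial markers at 49.2 and 71.7 CPM in TKO and 44.5 and 37.7 CPM in DKO. The fibroblast, T and NK, monocyte, plasmacytoid, type 1 and endothelial lists were thus higher in both TKO libraries, and the epithelial list was lower. The B cell list was barely higher, at 130.2 CPM in TKO replicate 2 against 129.5 CPM in DKO replicate 2. The part of all these lists in the results above was not tested. In Siglech-high members the T and NK list stood at 578 CPM, against 156 CPM in Mgl2-high and 64.9 CPM in Mgl2-low members.

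Whether the genotype acted differently on these cells than on their neighbours was tested as a difference of fold changes within libraries. Of 7541 genes 0 passed against C1q macrophages (0.0%), with 324 at an unadjusted edgeR p under 0.05. Of 7611 genes 0 passed against monocyte gate cells (0.0%), with 292 at an unadjusted p under 0.05. DESeq2 size factors gave 0 in both. Ifi202b was also low in the TKO monocyte gate, with 1.56 and 0 CPM in TKO, against 152 and 174 CPM in DKO cells, and its fold change in members differed from that by 1.24 ± 1.56 (SE). In C1q macrophages it had 0 and 24.8 CPM in TKO and 153 and 46.9 CPM in DKO. Cxcl10 had 392 and 330 CPM in TKO and 15.5 and 35.8 CPM in DKO monocyte gate cells, so its fold change in members differed from theirs by -1.91 ± 0.61 (SE, edgeR adjusted p = 1.0). In C1q macrophages the Cxcl10 levels overlapped, at 87.0 and 116 CPM in TKO and 778 and 73.0 CPM in DKO, and the difference of fold changes was 3.43 ± 0.66 (SE, edgeR adjusted p = 0.950). Bst2 had 598 and 482 CPM in TKO and 289 and 619 CPM in DKO monocyte gate cells, which overlapped. C1q macrophages numbered 22 and 11 in TKO and 10 and 11 in DKO, so the precision of that fit is low.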

How the data were processed

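The authors deposited UMI counts per gene and cell, whole numbers with no scaling, as the values show. Per the submitters' processing notes, Cell Ranger 7.0.0, STAR and mm10 were used. The 4 libraries (single-cell 3' chemistry, hashtagged) held 3508 barcodes, 32285 genes and 6 hashtag features. Doublets were kept.

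Members, gene lists and the 2 divisions of the members were chosen with earlier results of these data known. For each library the members' UMIs were added up, and genotypes were compared with edgeR 4.0.16 in R 4.3.3 (TMM scaling, filterByExpr, robust quasi-likelihood fit, genotype as the only term, Benjamini-Hochberg adjustment over all genes at 0.05). The step was tested on simulated data. SEs are those implied by the fold change and the F statistic. Differences between populations had library as a term. Shares were compared by exact permutation over libraries. Alternatives were DESeq2 1.42.0, its size factors, no filter, a replicate block, stricter members and leaving out each library. Leaving out Siglech-high members, and the rule's genes from the lists, was added after seeing the data. Summed counts of no 2 libraries matched within sampling noise (chi-square over its degrees of freedom at least 3.20).

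Named genes were the model genes, the 10 of smallest p and up to 3 of smallest p per list, with 20 CPM or more in the higher genotype and no overlap. Predicted genes were left out. Positions are from GENCODE M21. Results for some genes are not reported here.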

Additional observations from a re-analysis of the deposited data

How the results depend on the processing

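The single call, Ifi202b, held under every alternative tried, but the number of calls did not. Against 1 gene called, DESeq2 called 12, no filter beyond 1 UMI gave 144, the replicate block gave 2, and members without B cell, neutrophil or epithelial UMIs gave 2. Leaving out 1 library gave 34 to 229 (91 without TKO replicate 1, 34 without TKO replicate 2, 147 without DKO replicate 1, 229 without DKO replicate 2). Each such fit assumes that the lone library varies like the other genotype. Same-numbered libraries did not deviate together (r = 0.04 over 6906 genes), so the block pairs nothing the labels give. The test of a different effect gave, against C1q macrophages, 59 without the filter and 0 to 123 without 1 library (123 without DKO replicate 1, 108 without DKO replicate 2). Against the monocyte gate it gave 25 without the filter and 0 to 35 without 1 library (25 without TKO replicate 1, 35 without TKO replicate 2). The share difference of -0.006 points was 0.361 points with a Cd209a UMI required, 0.288 points without members holding UMIs of other cell types, and -0.527 to 0.515 points without 1 library. Thinning to 2000 UMIs gave 12.02 points for the share with a Clec10a UMI, against -4.76 at full depth, and -6.85 points for Ccr7, against 4.44.

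Of the 72 genes named by rule with a fit, 7 changed sign in a setting, none of them called. In log2 fold change, H2-Aa was -0.0031 with DESeq2 and -0.0030 with its size factors. With a Cd209a UMI required, H2-Aa was -0.015, Col1a1 -0.098, Dcn 0.077 and Mki67 0.065. Without UMIs of other cell types H2-Aa was -0.011, H2-Eb1 0.0037, Dcn 0.036 and Mki67 0.24, and without Siglech-high members H2-Eb1 was 0.039. Without 1 library the range was -0.11 to 0.24 for Mgl2, -0.072 to 0.078 for H2-Aa, -0.33 to 0.19 for Dcn and -0.039 to 0.086 for Cd74. Among the genes chosen after their values were seen, Irf7 (-0.10 to 0.71), Ccl17 (-2.93 to 0.32), Zbtb46 (-0.079 to 0.15) and Irf4 (-0.17 to 0.064) also changed sign without 1 library. The cause was not tested in any of these.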
